A study of Saccharomyces cerevisiae with 12 samples.

Results

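The genes described here encode the proteins of the cytosolic ribosome of budding yeast, Saccharomyces cerevisiae. They were taken by name, as the probe sets whose gene symbol on the array platform is RPL or RPS with a number and an optional A or B, or RPP0 to RPP2 with an optional A or B. The rule took 148 of 5715 probe sets, which stand for 128 of 5448 genes. RPP1, a symbol the rule also takes, belongs to a protein of ribonucleases P and MRP, which cut precursor tRNA and rRNA, and not to the ribosome. It was left out of all counts, which are over the other 127 genes: 70 of the large subunit, 52 of the small subunit and 5 of the acidic stalk. The RefSeq gene table holds 138 symbols of this form, of which 10 were not analysed here.

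A ribosome holds each of these proteins in about equal number, so their genes are usually expressed together and follow growth rate and nutrient signals. In yeast most of them are driven by Rap1 with Fhl1, Ifh1, Sfp1 and Hmo1, and the deacetylase Rpd3 is known to take part in switching them off under stress. The whole-genome duplication left many of them as pairs of near-identical genes, called A and B, whose copies can differ in expression although their proteins hardly differ.

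Messenger RNA was measured with Affymetrix arrays (Yeast Genome 2.0), on 12 arrays from 4 strains of W303-1A background grown in triplicate. The bmh mutant (strain YLL1087, bmh1-170ts bmh2∆) has a temperature-sensitive allele of one 14-3-3 gene and lacks the other; 14-3-3 proteins bind phosphorylated partners. The hdac mutant (CTY-TY44, hda1∆ rpd3∆) lacks HDA1 and RPD3, both genes of histone deacetylases, and the combined mutant (KBY3, bmh1-170ts bmh2∆ hda1∆ rpd3∆) carries all of these mutations. The wild type was W303-CH1A. All cultures were in exponential growth at 30 °C, in YP medium containing 5% glucose, and the labels do not say how far the temperature-sensitive allele is impaired there. The strains allow the 14-3-3 mutations and the deacetylase deletions to be compared singly and combined; the 3 comparisons with the wild type share its arrays.

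On the hdac and combined arrays the source names carry each other's strain name, so the genotype labels were used. BMH2 averaged 4.03 on bmh, 11.65 on hdac, 3.80 on combined and 11.64 on wild-type arrays (log2 signal), which fits the genotype labels. On the hdac and combined arrays HDA1 averaged 3.82 and 3.78 against 8.22 in the wild type, and RPD3 3.86 and 3.89 against 9.61. The strains also differed in transcripts of mating type. The mean of 7 markers of a cells lay per array at 10.58 to 10.65 in the bmh, 5.88 to 5.99 in the hdac, 9.03 to 9.06 in the combined mutant and 10.85 to 10.91 in the wild type. The mean of 4 markers of alpha cells lay at 5.57 to 5.79, 9.999 to 10.02, 5.93 to 5.96 and 5.53 to 5.66 in the same order. Of the wild-type arrays, array 1 stood apart: 61 genes were 2-fold or more away from their level on its replicates, against 6 on each of those. Over the ribosomal protein genes its median difference was 0.04, but RPS14B, RPS9A, RPL22B and RPL15B stood higher on it, and their differences between the hdac mutant and the wild type are given with and without it. Values are log2 signals and differences are log2 differences with their standard error, from limma with Benjamini-Hochberg adjustment over all genes. A gene was called changed at an adjusted p under 0.05. In bulk RNA, fewer transcripts per cell cannot be told apart from a different mix of cells, and every value is relative to the total RNA on the array.

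Most ribosomal protein genes lay slightly lower in the mutants than in the wild type, with the smallest median difference in the bmh and the largest in the combined mutant. In the bmh mutant 16 of the 127 fell and 0 rose, where 17.2% of all genes fell, 14.8% rose and 32.0% were called in either direction; an unadjusted p under 0.05 was reached by 32 members. In the hdac mutant 49 fell and 2 rose, where 41.7% of all genes fell, 29.7% rose and 71.4% were called. In the combined mutant 85 fell and 1 rose, where 45.3% of all genes fell, 30.3% rose and 75.6% were called. The share of members that fell was near that of all genes in the bmh and hdac mutants, so those counts are no result about the members; few members rose in any strain.

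The median change of the members was −0.07 in bmh, −0.10 in hdac and −0.18 in combined cells, against −0.01, −0.09 and −0.13 over all genes. Relative to all genes the members thus lay 0.06, 0.01 and 0.05 lower. After another quantile normalization they lay 0.03 lower in bmh, 0.04 higher in hdac and 0.01 lower in combined cells, and after cyclic loess 0.04, 0.04 and 0.10 lower. Cyclic loess moved the median of all genes in the combined mutant to −0.02, so how far the group fell against the average gene depends on the scaling. The members' changes were narrower than those of other genes: only 1, 4 and 11 of the 127 moved by more than 0.5 in the bmh, hdac and combined mutant, where 562, 2196 and 2535 of the 5448 genes did.

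**Figure D1:**
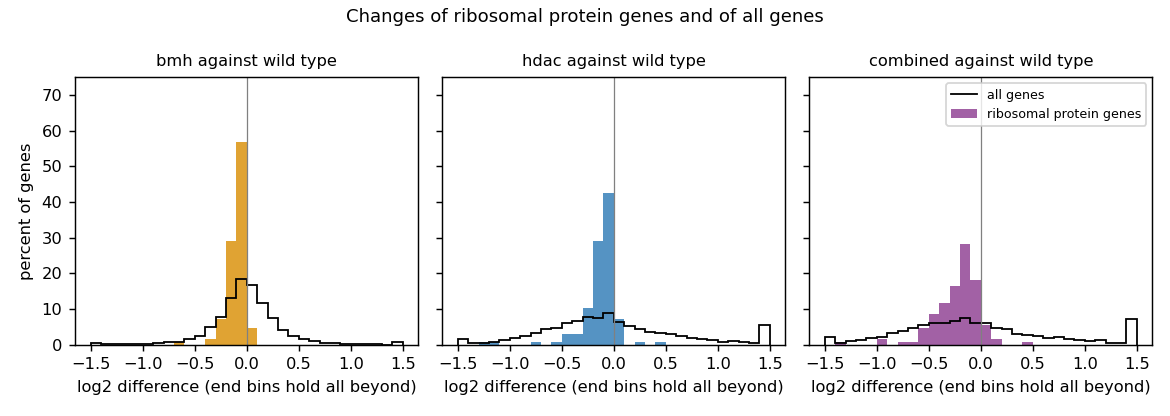
Distribution of log2 differences from the wild type in bins of 0.1, as the percent of the 127 ribosomal protein genes (bars) and of the 5448 genes (line), for the bmh, hdac and combined mutants. The members sit in a narrow peak just below 0 in each mutant, with medians of −0.07, −0.10 and −0.18, while other genes spread widely to both sides.

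The shift was visible on each array. Set against the wild-type mean of the same gene, the median over the members lay at −0.06, −0.08 and −0.08 on the 3 bmh arrays, at −0.12, −0.12 and −0.06 on the hdac arrays, and at −0.17, −0.20 and −0.20 on the combined arrays, against 0.03, −0.03 and −0.00 on the wild-type arrays. The mutant arrays all lay below the wild-type arrays, and the combined arrays lowest. At 68 members in bmh, 71 in hdac and 104 in combined cells the 3 mutant arrays lay below all 3 wild-type arrays, where 22.7%, 41.2% and 45.1% of all genes did so. The opposite order held at 0, 3 and 3 members, against 18.4%, 30.1% and 30.1% of all genes. The members also varied less between replicate arrays than the average gene. Their median SD within a strain was 0.025 for bmh, 0.034 for hdac, 0.037 for combined and 0.042 for wild-type arrays. Over all genes it was 0.065, 0.068, 0.067 and 0.14. The SDs of other genes as bright as the members were not compared.

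Large and small subunit genes had similar medians in each mutant. In the bmh mutant 8 of 70 large and 8 of 52 small subunit genes fell, with medians of −0.08 and −0.07. In the hdac mutant 30 large subunit genes fell and 1 rose, with a median of −0.10, and 18 small subunit genes fell and 1 rose, also with a median of −0.10. In the combined mutant 51 large subunit genes fell and 1 rose, with a median of −0.20, and 33 small subunit genes fell, with a median of −0.18. The median of the large subunit minus that of the small was −0.01, −0.01 and −0.02 in the 3 mutants, next to an SD of 0.012 between replicate arrays for this difference. In the combined mutant it was −0.05 without wild-type array 2 and −0.04 without combined array 1, and in the bmh mutant it ran from −0.02 without bmh array 3 to 0.00 without wild-type array 2. No test was run on these medians.

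**Figure D2:**
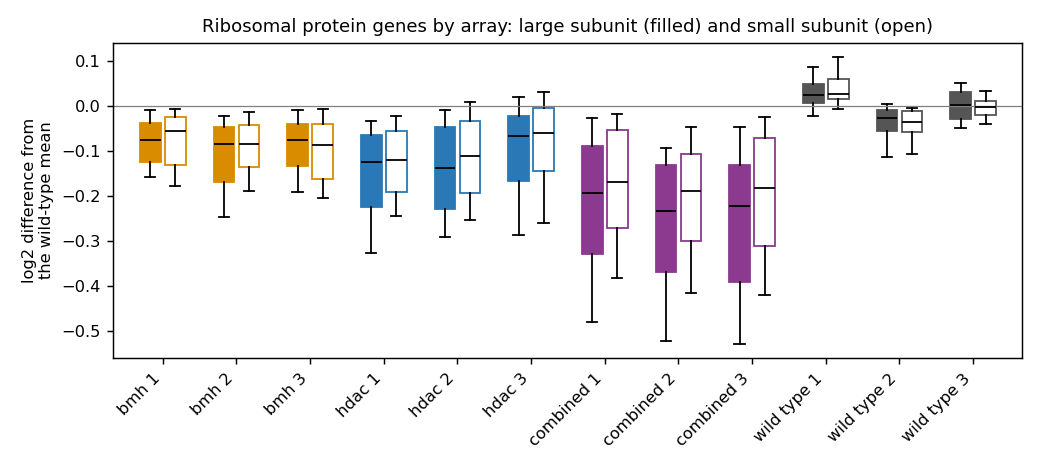
Log2 difference of each member from its wild-type mean on each of the 12 arrays, for 70 large subunit genes (filled boxes) and 52 small subunit genes (open boxes); boxes span the quartiles, the line is the median and whiskers reach the 10th and 90th percentile. The 3 combined arrays sit lowest, and the boxes of both subunits lie at about the same height on every array.

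In the acidic stalk, a flexible arm of the large subunit that recruits translation factors, 1 of 5 genes was called. RPP1A, a P1 protein gene, fell by 0.21 ± 0.052 in the combined mutant (adjusted p = 0.0030) and by 0.14 ± 0.052 in the hdac mutant (adjusted p = 0.034), and its difference in the bmh mutant was −0.14 (adjusted p = 0.052). RPP1A read 13.53, 13.52 and 13.54 on the bmh, 13.56, 13.49 and 13.58 on the hdac and 13.49, 13.41 and 13.50 on the combined arrays, against 13.73, 13.66 and 13.65 on the wild-type arrays. Each mutant array was thus below the wild-type arrays, but the hdac call was lost without wild-type array 1 or 2 or hdac array 1 or 2, and with each other scaling. RPP0, the protein that anchors the stalk, differed by −0.03 in the combined mutant, and RPP1B, RPP2A and RPP2B differed by 0.04, −0.00 and −0.05, none with a call.

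The ubiquitin fusion genes make a ribosomal protein joined to ubiquitin, which is cut off after translation. RPS31 differed by −0.01 in bmh, −0.00 in hdac and −0.02 in combined cells, and RPL40A by −0.04, −0.03 and −0.04, all without a call. RPL40B fell by 0.25 in the bmh (adjusted p = 0.0059) and by 0.28 in the combined mutant (adjusted p = 0.00074), while its difference in the hdac mutant was −0.13 (adjusted p = 0.062). The B copy of this pair therefore changed where the A copy did not pass the test, and the difference between the copies is tested below.

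The 18 members whose symbol has no A or B had smaller medians than the paralogs, with no test of that difference. None of these was called in the bmh mutant, where 2 had an unadjusted p under 0.05 in limma. In the hdac mutant 2 fell (RPL29 by 0.15 and RPS20 by 0.13), and in the combined mutant 8 fell, where 41.7% and 45.3% of all genes did; the count of 8 of 18 is near that share and is no result about these members. The 8 were RPL3, RPL5, RPL10, RPL29, RPL32 and RPL38 of the large subunit and RPS15 and RPS20 of the small subunit. RPL3 and RPL10, which build parts of the large subunit close to the peptidyl transferase centre, fell by 0.18 (adjusted p = 0.0066) and 0.11 (adjusted p = 0.048), and RPL5, which carries 5S rRNA into the ribosome, fell by 0.12 (adjusted p = 0.036). The median of the 18 was −0.05, −0.04 and −0.10 in the bmh, hdac and combined mutant, against −0.09, −0.13 and −0.23 for the A copies and −0.07, −0.11 and −0.22 for the B copies of the 49 pairs read by probe sets of their own. Of the A copies 6, 25 and 35 fell, and of the B copies 9, 20 and 36, which are similar counts for both letters. Over all genes 17.2%, 41.7% and 45.3% fell in these mutants. The 18 members were also brighter, with a median log2 signal of 14.00 against 13.46 for the A and 13.34 for the B copies. In the combined mutant the 42 brightest of all members had a median of −0.11, near the −0.10 of the 18. The part of signal level in the smaller medians of the 18 was not tested.

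Members with dimmer probe sets had the larger differences. Ribosomal protein probe sets are among the brightest on the array: 121 of the 127 lay above the 90th percentile of all genes, at 11.59, and the quartiles of their means were 13.19, 13.51 and 13.88. Among the 43 dimmest members 35 fell and 1 rose in the combined mutant with a median of −0.37, among the 42 of middle signal 31 fell with a median of −0.20, and among the 42 brightest 19 fell with a median of −0.11. Over all genes 45.3% fell and 30.3% rose there. The count of 19 of the 42 brightest is near the share that fell and is no result about these members. The hdac mutant had medians of −0.20, −0.09 and −0.04 and the bmh mutant −0.14, −0.07 and −0.04 in the same order. Other genes of that brightness were few. Between the lower and upper quartile of the members' signal, 46 of 63 members fell and 0 rose in the combined mutant with a median of −0.20, while of 45 other genes 13 fell and 17 rose with a median of 0.08. How far the upper end of the array's range narrows the differences of the brightest probe sets was not tested.

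**Figure D3:**
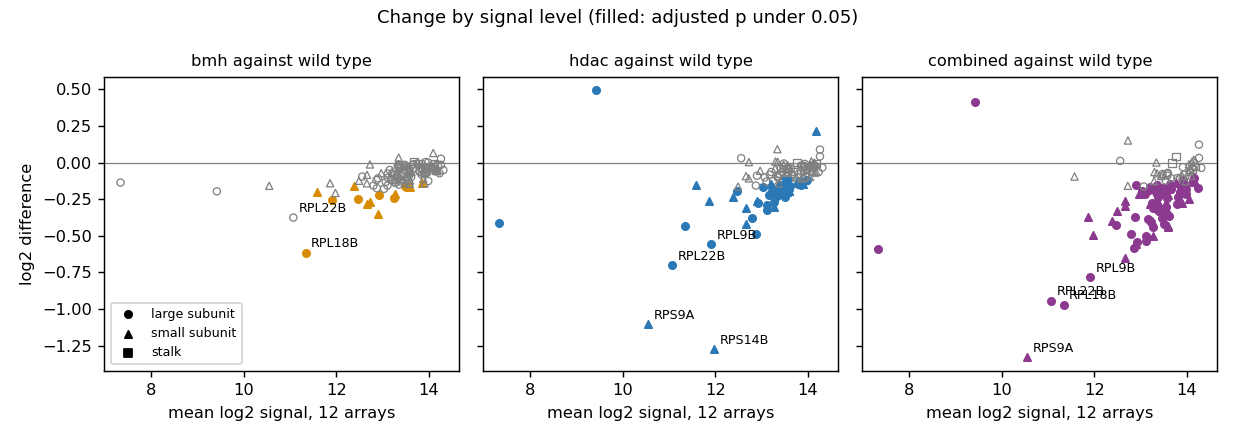
Log2 difference from the wild type against the mean log2 signal of the gene over 12 arrays, for the bmh, hdac and combined mutants; circles are large subunit, triangles small subunit and squares stalk genes, filled where adjusted p was under 0.05. The differences fan out below 0 towards lower signals, with medians in the combined mutant of −0.37 for the dimmest and −0.11 for the brightest members.

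The largest called falls in the bmh mutant were in RPL18B, RPS27A, RPS7B, RPS10A and RPL9B, from both subunits. RPL22B differed by −0.38 there without a call. RPL18B, of the large subunit, read 11.22, 11.22 and 11.25 on the bmh arrays, 11.30, 11.41 and 11.52 on the hdac arrays and 10.96, 10.77 and 10.90 on the combined arrays, against 11.86, 11.73 and 11.94 on the wild-type arrays. All 9 mutant arrays lay below the wild-type arrays, with differences of −0.62 ± 0.076 in the bmh (adjusted p = 7.4e-05), −0.43 in the hdac (adjusted p = 0.00025) and −0.97 in the combined mutant (adjusted p = 1.9e-07). A second probe set named RPL18B, of the kind that also matches other transcripts, differed by −0.05, −0.05 and −0.06. RPS27A fell by 0.35, 0.26 and 0.55 in the bmh, hdac and combined mutant, and RPS7B by 0.28, 0.42 and 0.65, and RPS10A fell by 0.27 in the bmh mutant, with uncalled differences of −0.11 in hdac and −0.16 in combined cells. RPL9B fell by 0.25 in the bmh mutant (adjusted p = 0.045), a call that was lost without wild-type array 1 or 2, any bmh or combined array, or hdac array 2. The RPS10A call was lost without wild-type array 2 or 3 or bmh array 1 or 2.

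In the hdac mutant the largest falls were in RPS14B, RPS9A, RPL22B, RPL9B and RPL34A, and the 2 rises were in RPL15B and RPS14A. RPS9A, one copy of a small subunit protein that binds early in assembly and helps decoding accuracy, read 11.20, 11.01 and 10.92 on the bmh arrays, 10.05, 10.13 and 10.11 on the hdac arrays and 9.85, 9.84 and 9.92 on the combined arrays, against 11.57, 10.97 and 11.06 on the wild-type arrays. The strains without HDA1 and RPD3 were well below both others, which overlapped. RPS9A fell by 1.11 ± 0.13 in the hdac (adjusted p = 8.9e-06) and by 1.33 ± 0.13 in the combined mutant (adjusted p = 1.4e-06), and by 0.92 and 1.14 without wild-type array 1. RPL22B, of a large subunit pair, fell by 0.70 and 0.94 in the hdac and combined mutant, and by 0.49 and 0.73 without that array. RPL22B read 11.17, 11.23 and 11.20 on the bmh arrays, 10.89, 10.93 and 10.81 on the hdac arrays and 10.53, 10.67 and 10.71 on the combined arrays, against 12.01, 11.32 and 11.41 on the wild-type arrays. All mutant arrays of RPL22B lay below the wild type, the combined arrays lowest.

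RPL9B, of the large subunit, read 12.12, 12.04 and 12.03 on the bmh arrays, 11.58, 11.74 and 11.95 on the hdac arrays and 11.57, 11.48 and 11.55 on the combined arrays, against 12.44, 12.27 and 12.23 on the wild-type arrays. RPL9B fell by 0.56 in the hdac mutant (adjusted p = 0.00010) and by 0.78 in the combined mutant (adjusted p = 4.6e-06). RPL34A, of the large subunit, read 13.04, 13.02 and 13.07 on the bmh arrays, 12.65, 12.65 and 12.73 on the hdac arrays and 12.64, 12.51 and 12.59 on the combined arrays, against 13.17, 13.11 and 13.21 on the wild-type arrays. The hdac and combined arrays of RPL34A lay close together and under the others, and it fell by 0.49 and 0.58 in these mutants. RPS7B, of the small subunit, read 12.69, 12.76 and 12.72 on the bmh arrays, 12.60, 12.57 and 12.58 on the hdac arrays and 12.42, 12.37 and 12.27 on the combined arrays, against 13.03, 12.95 and 13.02 on the wild-type arrays. The strains of RPS7B stood in that order without overlap, the wild type highest.

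RPL15B was the sole member that rose in the combined mutant. It read 9.16, 8.92 and 9.07 on the bmh arrays, 9.60, 9.89 and 9.73 on the hdac arrays and 9.66, 9.65 and 9.67 on the combined arrays, against 9.65, 8.88 and 9.21 on the wild-type arrays. The wild-type arrays were spread widely, and wild-type array 1 overlapped the hdac and combined arrays. RPL15B rose by 0.49 ± 0.15 in the hdac (adjusted p = 0.012) and by 0.41 in the combined mutant (adjusted p = 0.026). Without wild-type array 1 the rises were 0.69 and 0.62. Without wild-type array 2 the rise in the hdac mutant was 0.31 (adjusted p = 0.046), and the difference in the combined mutant was 0.23 with no call (adjusted p = 0.12). The combined call was also lost without wild-type array 3 or any combined array, at 0.40 to 0.42. Its partner RPL15A differed by −0.04 in the hdac mutant and fell by 0.19 in the combined mutant.

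The falls of the combined mutant were largest in RPS9A, RPL18B, RPL22B, RPL9B and RPS7B. Set against the bmh mutant instead of the wild type, it shows deacetylase loss in cells with reduced 14-3-3 function: 61 members fell and 1 rose, where 45.1% of all genes fell, 30.0% rose and 75.1% were called, and the median was −0.12 for the members and −0.12 for all genes, a difference of 0.01 that became −0.07 after cyclic loess. The largest falls were 1.17 in RPS9A, 0.57 in RPL22B, 0.53 in RPL9B, 0.46 in RPL34A and 0.45 in RPL41A, and the rise was 0.61 in RPL15B. Set against the hdac mutant, 35 fell and 1 rose, where 18.9% of all genes fell, 17.5% rose and 36.4% were called, and the median was −0.09 for the members and −0.02 for all genes. The largest falls were 0.54 in RPL18B, 0.29 in RPS27A, 0.27 in RPL36A, 0.26 in RPS8A and 0.25 in RPL2A, and the rise was in RPS14B. This last count was unsteady: it was 19 without combined array 2, 15 without combined array 3, and 21, 18 and 17 without hdac arrays 1, 2 and 3, against 49 without wild-type array 1.

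**Figure D4:**
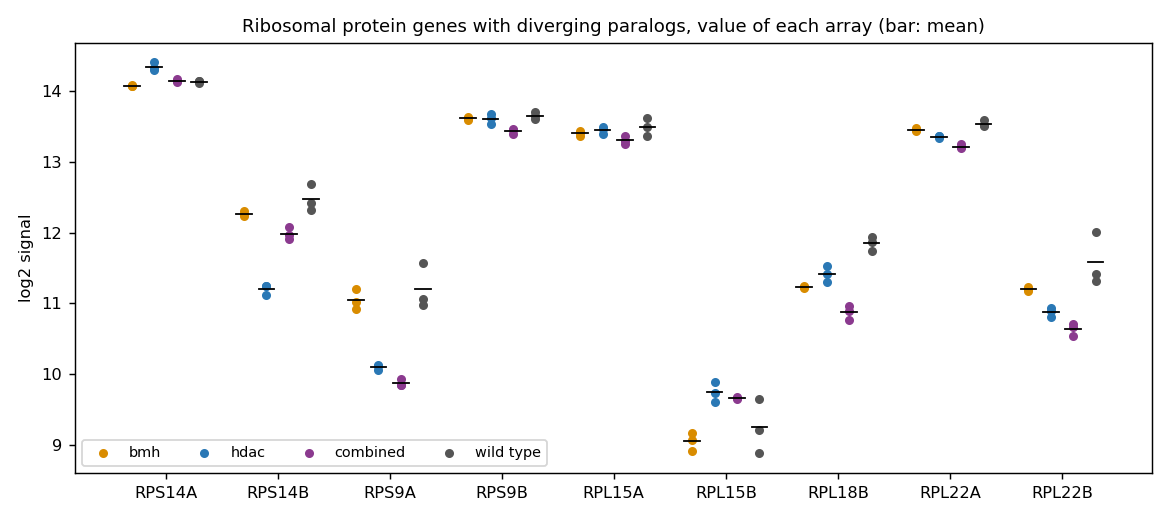
Log2 signal of 9 members on each array (points) with the strain mean (bar), in the order bmh, hdac, combined and wild type for each gene. RPS14B is lowest on the hdac arrays at 11.11 to 11.25, RPS9A lies at 9.84 to 10.13 on the hdac and combined arrays, and RPL15B lies at 9.60 to 9.89 there, level with the highest of its widely spread wild-type arrays.

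RPS14B was the sole member higher, with a call, in the combined than in the hdac mutant. Together with RPS14A it encodes a protein of the small subunit's platform, which in yeast is known to bind the RNA of RPS14B and hold back its expression. RPS14B read 12.27, 12.30 and 12.23 on the bmh arrays, 11.25, 11.11 and 11.24 on the hdac arrays and 11.91, 11.96 and 12.08 on the combined arrays, against 12.68, 12.32 and 12.42 on the wild-type arrays. The hdac arrays lay lowest and the combined arrays between these and the other strains. At 27.5% of all genes the 3 combined arrays likewise lay above all 3 hdac arrays. RPS14B fell by 1.27 ± 0.088 in the hdac (adjusted p = 8.6e-08) and by 0.49 ± 0.088 in the combined mutant (adjusted p = 0.00026), and its difference in the bmh mutant was −0.21 (adjusted p = 0.094). Without wild-type array 1 the fall in the hdac mutant was 1.17 and still called. It was 0.78 higher in the combined than in the hdac mutant (adjusted p = 2.5e-05).

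RPS14A moved the other way in the hdac mutant. It read 14.07, 14.08 and 14.09 on the bmh arrays, 14.30, 14.32 and 14.41 on the hdac arrays and 14.17, 14.13 and 14.14 on the combined arrays, against 14.14, 14.12 and 14.14 on the wild-type arrays. Only the hdac arrays stood above the rest, by 0.21 ± 0.049 against the wild type (adjusted p = 0.0019), and the difference was 0.01 in the combined mutant. The mating-type markers given above also set the hdac arrays apart from the other 9, and their part in the RPS14 values was not tested.

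The interaction (the combined-minus-bmh difference less the hdac-minus-wild-type difference) asks whether the combined mutant departs from the sum of the effects of the bmh and hdac mutations. It was called at 1 of the 127 members, in the upward direction, where 12.2% of all genes were called upward, 11.3% downward and 23.5% in all; 3 members had an unadjusted p under 0.05 in limma. The member was RPS14B, at 0.99 ± 0.12 (adjusted p = 0.00011), and 0.88 without wild-type array 1 (adjusted p = 9.4e-06). The median over the members was −0.01, and without RPS14B the values ran from −0.19 to 0.26. A missed threshold does not show that the effects add up for the others: the median standard error of a member's interaction was 0.074.

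Paralog pairs were compared by the change of A minus the change of B, for the 49 pairs with a probe set for each copy, and tested in the same fit. The bmh mutant shifted this difference at 7 pairs (14.3% of the 49), upward at 4 and downward at 3; 3 pairs were called without bmh array 1 and 4 without bmh array 2. The hdac mutant shifted it at 21 (42.9%), upward at 9 and downward at 12, and the combined mutant at 32 (65.3%), upward at 13 and downward at 19. Between the combined and the bmh mutant it shifted at 23 (46.9%), 10 upward and 13 downward, and between the combined and the hdac mutant at 7 (14.3%), 3 upward and 4 downward; that last count was 13 without wild-type array 1. Both directions occurred in each of these comparisons, and the median over the pairs in the combined mutant was −0.04. The copy with the dimmer wild-type signal had the more negative difference at all 7 pairs called in the bmh mutant. This also held at the called pairs of hdac cells except RPL12 and RPL15, and of combined cells except RPL15, RPL26, RPL37 and RPS22. The part of signal level in the pair differences was not tested.

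RPS9 and RPS14 had the largest called differences in the hdac mutant. For RPS9 it was −1.07 in the hdac (adjusted p = 4.1e-06) and −1.11 ± 0.11 in the combined mutant (adjusted p = 2.2e-06). RPS9B differed by −0.04 in the hdac mutant and fell by 0.22 in the combined mutant, where RPS9A fell by 1.11 and 1.33. For RPS14 the difference was 1.49 ± 0.088 in the hdac mutant (adjusted p = 2.4e-08) and 0.50 in the combined mutant (adjusted p = 0.00022). It was 0.98 lower in the combined than in the hdac mutant (adjusted p = 3.9e-06), and the interaction was −1.13 (adjusted p = 4.0e-05), called at 1 of the 49 pairs (2.04%). Without wild-type array 1 the RPS9 difference was −0.91 in hdac and −0.95 in combined cells, and the RPS14 difference in the hdac mutant was 1.38.

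The large subunit pairs RPL15, RPL22 and RPL9 also diverged in both strains without HDA1 and RPD3. RPL15 stood at −0.53 in hdac and −0.61 in combined cells (adjusted p = 0.0014 and 0.00050), RPL22 at 0.52 and 0.62 (adjusted p = 0.0028 and 0.00075) and RPL9 at 0.43 and 0.57 (adjusted p = 0.0010 and 0.00010). Wild-type arrays moved these sizes: RPL22 stood at 0.33 and 0.43 without array 1, and RPL15 at −0.67 and −0.75 without array 1 but at −0.41 and −0.48 without array 2, all still called. In the bmh mutant their differences were 0.11, 0.29 and 0.10, none with a call.

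RPS27 was the pair with the largest called divergence in the bmh mutant, at −0.30 (adjusted p = 0.0030), and stood at −0.25 in hdac and −0.57 in combined cells (adjusted p = 3.1e-06). RPS27A read 12.87, 12.86 and 12.79 on the bmh, 12.95, 12.92 and 12.91 on the hdac and 12.56, 12.69 and 12.66 on the combined arrays, against 13.27, 13.15 and 13.15 on the wild-type arrays. RPS27B stayed within 0.06 of the wild type in every mutant, while RPS27A was lower. The probe set of RPS27B was the brighter, with a wild-type A minus B signal of −0.97. The part of signal level in this divergence was not tested. The next largest among the called pairs of the bmh mutant were RPS7 at 0.22, RPL40 at 0.20, RPL36 at −0.18 and RPL14 at 0.18, of which RPL36 lost its call without wild-type array 1 or 2 or bmh array 1 or 2, and RPL14 without wild-type array 1, bmh array 1 or 2, combined array 2 or 3, or hdac array 1.

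**Figure D5:**
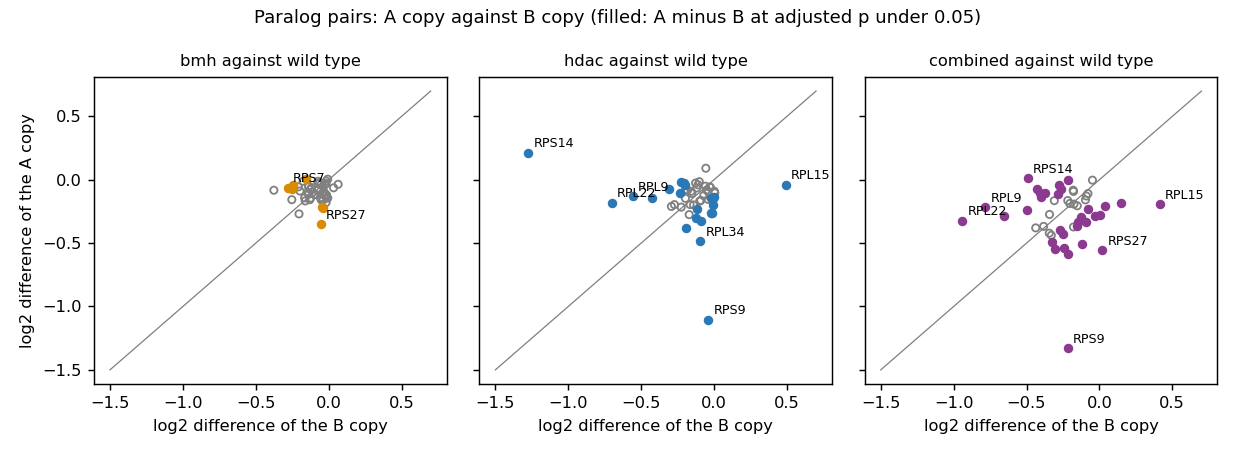
Log2 difference of the A copy against that of the B copy for 49 paralog pairs in the bmh, hdac and combined mutants relative to the wild type; the line marks equal change, and filled points are pairs whose A minus B difference had an adjusted p under 0.05. Filled points lie on both sides of the line, 7 in bmh, 21 in hdac and 32 in combined cells, with RPS14 far above it in the hdac mutant and RPS9 far below it in the hdac and combined mutants.

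Shared probe sets limit what can be said of single copies. Of the 148 probe sets 29 are of a kind that can match several transcripts, 23 ending in _s_at and 6 in _x_at. For 9 members (RPL1B, RPL4A, RPL7A, RPL35A, RPL41A, RPL42B, RPS4B, RPS6B and RPS30A) such a probe set is the only one, and the value may be that of both copies. Of these RPL7A fell by 0.18, RPL35A by 0.18, RPS4B by 0.14, RPS6B by 0.12 and RPL41A by 0.59 in the combined mutant, and the other 4 were not called. RPL41A had the dimmest probe set of all members, at 6.91 to 7.73 over the arrays. Another 20 genes had both kinds of probe set, and in the combined mutant both differed in the same direction at all 20. The gene's own probe set minus the shared one ran from −0.91 (RPL18B) to 0.15 (RPS24A) with a median of −0.05.

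Several regulators of these genes had larger differences than the genes' median. Of 11 regulators measured 0 rose and 3 fell in the bmh mutant, where 14.8% of all genes rose and 17.2% fell. In the hdac mutant 4 rose and 4 fell, where 29.7% and 41.7% of all genes did. In the combined mutant 4 rose and 6 fell, where 30.3% and 45.3% of all genes did. The hdac and combined counts are near those shares and are no result about the regulators as a list. HMO1, which binds the promoters of ribosomal protein genes and rDNA, fell by 0.47 in hdac and by 1.04 in combined cells. Its fall of 0.19 in the bmh mutant (adjusted p = 0.037) was no longer called without wild-type array 2 or 3, bmh array 1 or 3, combined array 2 or hdac array 3. SFP1, an activator that responds to nutrients, fell by 0.61 in hdac and 1.04 in combined cells. ABF1, a general factor bound at some of these promoters, fell by 0.70, 1.07 and 1.33, or by 0.43, 0.80 and 1.06 without wild-type array 1. The bmh call of ABF1 was lost without bmh array 3, at −0.57 (adjusted p = 0.059). CRF1, a corepressor that competes with Ifh1, rose by 1.65 in hdac and 1.97 in combined cells. It read 4.14, 4.58 and 4.59 on the wild-type arrays, close to the 3.68 to 4.13 of deleted genes, so the sizes of its rises are uncertain and may be too low. RAP1 and FHL1 fell by 0.14 and 0.38 in the combined mutant, and IFH1 was not called there (−0.21, adjusted p = 0.27). IFH1 read 9.06, 9.03 and 8.93 on the combined arrays, against 8.67, 9.41 and 9.57 on the wild-type arrays. Wild-type array 1 thus lay below the combined arrays and the other wild-type arrays above them. Against the bmh mutant IFH1 was 0.54 lower in the combined mutant (adjusted p = 0.013, limma). TOD6 fell by 0.65 in hdac and 0.49 in combined cells, while SCH9 rose by 0.22 and 0.26 and STB3 by 0.28 and 0.50. DOT6 fell by 0.31 in the bmh mutant and rose by 0.48 in hdac and 0.34 in combined cells.

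Most listed genes for chaperones of ribosomal proteins and for ribosome assembly fell in the strains without HDA1 and RPD3, where 41.7% of all genes fell in hdac and 45.3% in combined cells. All 7 dedicated chaperones measured fell in the combined mutant and 6 in the hdac mutant, with medians of −0.69 and −0.65, and 0 changed in the bmh mutant, where 0 had an unadjusted p under 0.05 in limma. TSR2, the escort of Rps26, fell by 0.96 in hdac and 1.23 in combined cells, SQT1, which binds Rpl10, by 0.72 and 0.96, YAR1, which binds Rps3, by 0.81 and 0.69, and BCP1, which binds Rpl23, by 0.65 and 0.77. Among 15 ribosome assembly genes 13 fell in hdac and 14 in combined cells, with medians of −0.36 and −0.45. In the bmh mutant 0 changed and 0 had an unadjusted p under 0.05 in limma. RLP7 and NOG2, which act in large subunit maturation, fell by 0.99 and 0.85 in the combined mutant, and NOP1, the box C/D methyltransferase fibrillarin, by 0.85.

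Elongation and ribosome-bound factors, abundant proteins that work on the finished ribosome, were the last list. Of 10 measured, 0 rose and 1 fell in the bmh, 1 rose and 2 fell in the hdac, and 1 rose and 4 fell in the combined mutant, where 17.2%, 41.7% and 45.3% of all genes fell. ANB1, the hypoxic isoform of eIF5A, fell by 1.12 in the bmh mutant and rose by 2.74 in hdac and 2.31 in combined cells. EFB1 and TEF4, subunits of the exchange factor of eEF1A, fell by 0.43 and 0.28 in the combined mutant, and STM1, which clamps idle ribosomes, fell by 0.18. RPP1, the ribonuclease subunit that the naming rule also takes, averaged 9.38 in bmh, 8.49 in hdac and 8.37 in combined cells, against 9.44 in the wild type, a fall of 0.94 in hdac and 1.06 in combined cells.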

How the data were processed

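Total RNA of triplicate cultures of 4 strains was hybridized to 12 arrays. Per the submitters' processing notes the authors made the deposited log2 signals with RMA in affy, versions not given in the sources used here; base 2 was inferred, and no further transformation was applied. Per the labels' protocols 250 ng of RNA were labelled with a 3′ IVT kit. Probe sets were named by the platform annotation, with 12 symbols updated through Entrez identifiers; 5497 had 1 symbol, 218 had none and were not used. For each gene a probe set not shared with other transcripts was preferred, then the brightest, which dropped 49 and left 5448 genes; this rule and the alternative of taking the brightest probe set alone were chosen after the data were seen. No genome build is named for the array, so no coordinates are printed.

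Strain differences were fitted in R 4.3.3 with limma 3.58.1 and statmod 1.5.0, as strain means over all 12 arrays. The empirical Bayes step had 3.85 prior and 8 residual degrees of freedom. P-values were adjusted by Benjamini-Hochberg over 5448 genes, or over 5497 genes and pairs together for the 49 pair differences. Exact permutation of 3 against 3 arrays cannot go below p = 0.1, so no such test is given. The script was tested on simulated data. The number of arrays limits the precision. Genes were named by rule: the strain genes, the 5 largest called rises and falls per comparison, the 5 largest called pair differences per comparison with the wild type and in the interaction, stalk and ubiquitin fusion genes, members with shared probe sets, and up to 4 called members of each other list. The partners of named genes and pairs, the regulators and the members without A or B outside this rule were chosen after their values were seen. Members, lists and tests were chosen with earlier results of these data known. Alternatives were leaving out each array, a stricter adjusted p (0.01), array weights, a replicate block, fits of the compared strains alone, a trended and robust eBayes, 3 other scalings (quantile, cyclic loess, median), every probe set kept, shared probe sets left out, and dim genes left out in 2 ways.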

Additional observations from a re-analysis of the deposited data

Results flagged for a closer look

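The interaction of the bmh and hdac mutations was called at RPS14B and at the RPS14 pair. It sets deacetylase loss in cells with reduced 14-3-3 function against deacetylase loss in cells without that reduction. It also carries the mating-type difference of the hdac arrays. Its median was −4.10 at 4 markers of alpha cells and 2.74 at 7 markers of a cells. The part of mating type in the RPS14 values was not tested. RPS14B stood at 0.99 (adjusted p = 0.00011, limma), with a difference of 0.78 between the combined and the hdac mutant. The A minus B difference of RPS14 stood at −1.13 (adjusted p = 4.0e-05).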

How the results depend on the processing

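No called result turned its sign in 14 other settings and 12 fits that each left out 1 array, and 38 of 51 called results for named ribosomal protein genes and pairs kept their call throughout. Array weights, trend and robust eBayes, loess and the like moved mainly the small counts; the cause was not tested. Genes called in the bmh mutant against the wild type, 16, numbered 9 after quantile normalization, 10 after cyclic loess, 39 with trend and robust eBayes, 4 in a fit of those strains alone and 5 at adjusted p under 0.01. In the hdac mutant, 51 became 31 with those strains alone and 32 at adjusted p under 0.01. For the combined against the bmh mutant 62 became 41 at adjusted p under 0.01. For the combined against the hdac mutant 36 became 19 after cyclic loess, 63 with trend and robust eBayes, 75 with array weights and 14 at adjusted p under 0.01. The interaction, called at 1, was called at 2 after cyclic loess, 7 with trend and robust eBayes and 10 with array weights. Pairs called in the bmh mutant, 7, became 11 with array weights, 2 in a fit of those strains alone and 2 at adjusted p under 0.01. Pairs between the combined and bmh mutants, 23, became 14 at adjusted p under 0.01. Pairs between the combined and hdac mutants, 7, became 12 after quantile normalization, 16 with trend and robust eBayes, 18 with array weights, 11 in a fit of those strains alone and 4 at adjusted p under 0.01. The pair interaction, 1, became 3 with trend and robust eBayes and 3 with array weights.

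Deviations from the strain mean correlated at 0.0999 to 0.14 between same-numbered bmh and combined arrays. Between differently numbered arrays of these strains they correlated at −0.11 to −0.03. Deviations were taken from each strain's own mean, so higher values at some array combinations force lower ones at others. The negative values are thus no separate evidence of pairing. In every other combination of strains some or all same-numbered correlations were negative. The value of 0.0999 narrowly missed the cut-off set for pairing, so the main fit took no pairs. Whether the numbers mark pairs of bmh and combined arrays is not settled. With a replicate block on all arrays the bmh count became 10 genes and 4 pairs, the count for combined against hdac 21 genes and the interaction 2 genes. With a replicate block for the bmh and combined arrays these were 9 genes, 4 pairs and 23 genes for combined against hdac.

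Leaving out 1 array, genes called ranged from 5 to 17 in the bmh, 38 to 49 in the hdac and 68 to 83 in the combined mutant, from 48 to 68 between the combined and bmh, from 15 to 49 between the combined and hdac mutants, and from 1 to 4 in the interaction. The bmh count was 5, 6 and 8 without bmh arrays 1, 2 and 3 and 9 without wild-type array 3. Pairs ranged from 3 to 7, 15 to 21, 27 to 32, 17 to 27, 6 to 13 and 1 to 2 in the same order; without bmh arrays 1 and 2 the pairs of the bmh mutant were 3 and 4. The interaction counts were 4 genes and 2 pairs without wild-type array 1, 2 genes without combined array 2, and 2 genes and 2 pairs without hdac array 3. With the brightest probe set per gene RPL18B was read by a shared probe set and lost its calls, at −0.06 in the combined mutant; RPL2A and RPS8A lost theirs between the combined and hdac mutants, at −0.02 and −0.05, and RPS10A its own in the bmh mutant, at −0.17.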

Other observations

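A list for the mitochondrial ribosome, which translates the few proteins encoded in the mitochondrion, is set beside the cytosolic members. It was taken by name, as symbols of MRP, MRPL or MRPS with a number. All 55 genes, MRP8 among them, were counted by symbol alone, and genes with other names are not in the list. In the bmh mutant 16 of 55 rose and 0 fell, with a median of 0.12, against −0.01 over all genes and −0.07 over the cytosolic members. Over all genes 14.8% rose and 17.2% fell there. In the hdac mutant 8 rose and 28 fell, with a median of −0.16, where 29.7% of all genes rose and 41.7% fell, with a median of −0.09. In the combined mutant 3 rose and 40 fell, with a median of −0.31, where 30.3% of all genes rose and 45.3% fell, with a median of −0.13. MRPL39, MRPL9, MRP20 and MRPL51 had the largest rises in the bmh mutant, at 0.47, 0.41, 0.34 and 0.34. MRPL31, MRPL35 and MRP17 fell most in the combined mutant, by 1.00, 0.99 and 0.99, and MRP8, which carries the family's name, rose by 0.94.

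The interaction was called at 1 of the 127 cytosolic genes, upward. Among the 55 listed genes it was called at 23, all downward. Over all genes 11.3% were called downward and 23.5% in either direction. MRPL32 had the largest, at −1.10 (adjusted p = 9.8e-07, limma). It rose by 0.24 in the bmh and by 0.86 in the hdac mutant and differed by 0.00 in the combined mutant. MRPL37, MRPL33 and MRPS35 followed at −0.75, −0.64 and −0.56. The difference between the sets was not tested. The hdac arrays also stood apart in mating-type markers, and the part of this in the interactions was not tested.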
